A study of Mus musculus with 44 samples.

Results

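Id2, Id3 and Tgfbr1 are genes of the response to transforming growth factor beta (TGF-beta) and bone morphogenetic proteins (BMPs), and their 3 rows were taken by name from a deposited table of 3613 genes in 44 single mouse cells. Id2 and Id3 encode inhibitor-of-DNA-binding proteins, and Tgfbr1 encodes the type I receptor for TGF-beta. Neonatal calvarial cells of C57BL/6J mice were cultured for 16 h with 50000 added megakaryocytes (20 cells, all from plate 7, called with-MK cells here) or without megakaryocytes (24 cells, all from plate 3, called without-MK cells). Cells were then sorted as CD45+ F4/80+ CD41-, captured on a Fluidigm C1 system and sequenced from full-length cDNA. The labels call all 44 cells primary osteomacs, macrophages that lie on bone surfaces. No label names an animal or a culture, so each set of cells counts as 1 sample, no test between the sets was made, and plate, capture and megakaryocytes cannot be told apart.

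BMPs and TGF-beta are secreted ligands that bind pairs of type I and type II receptors on the cell surface. The type I receptor then phosphorylates Smad proteins, which enter the nucleus and act on target genes. Id genes are classic targets of the BMP branch, while the TGF-beta branch can act on them in either direction depending on the cell. Id proteins have a helix-loop-helix domain but no DNA-binding region. They bind E proteins such as Tcf12 and keep them from DNA. In bone, BMP signalling is known for driving osteoblast formation, and TGF-beta is stored in the matrix in a latent form that must be activated.

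Some facts about the cells bear on everything that follows. The labels conflict on the without-MK cells: their titles carry the culture abbreviation with megakaryocytes in it, against their treatment field, which was used for the grouping. The markers also differ between the sets. On the CPM scale (reads × 1e+06 over library reads), the sum of 17 listed macrophage markers had a median of 26260 with megakaryocytes (range 4065 to 61330). Its median was 11.6 without them (range 0 to 176), and Fcgr3, C1qb, C1qc and Aif1 had no read there. The 7 listed osteoblast and fibroblast markers ran the other way, with a median of 11.2 (3.88 to 196) against 10050 (4276 to 98080). The without-MK cells therefore go against their osteomac label on these markers. Only 2 of 13 megakaryocyte and platelet markers, Pf4 and Plek, are in the table. Their sum had a median of 1459 CPM with megakaryocytes (0 to 8757) and 0 without (0 to 268). Whether these reads came from megakaryocytes or platelets or from the sorted cells themselves was not tested. The part of the marker differences in the results below was not tested either. The with-MK libraries held 69181 to 1212604 reads (median 834834.5) and the without-MK libraries 270537 to 714465 (median 527930), and with-MK cells 11 and 16 had under 100000.

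Id2 lies on the minus strand of chromosome 12 (25093799 to 25097140), Id3 on the plus strand of chromosome 4 (136143497 to 136145755) and Tgfbr1 on the plus strand of the same chromosome (47353222 to 47414931), all as protein-coding genes in GENCODE M21 on mm10. Because Id2 and Id3 differed in opposite directions between the sets, their start regions were searched for letters that Smad proteins are known to bind. The windows were 300 b long, from 250 b before to 50 b after the RefSeq start (GRCm38.p6), and were searched on both strands for GGCGCC, a GC-rich Smad element, CAGAC, the core of the Smad-binding element, and CANNTG, the E-box bound by E proteins. The letters of the first 2 motifs do not overlap in these windows. Below are the matches to the first 2 motifs in the windows of Id2 and Id3, each with 12 b on either side, written along the gene's strand with the motif in capitals. The Id2 stretch is chr12:25096306-25096335 on the minus strand, in an intron of the longest GENCODE transcript, and its motif begins at position −231 from the RefSeq start. Both Id3 stretches lie on the plus strand in the 5′ UTR of the GENCODE transcript, which begins upstream of the RefSeq start. The first is chr4:136143643-136143671, with its motif at position −167, and the second is chr4:136143742-136143770, with its motif at position −68 in reverse complement.
Id2 GC-rich element: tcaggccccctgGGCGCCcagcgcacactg
Id3 first CAGAC: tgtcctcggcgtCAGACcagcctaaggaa
Id3 second CAGAC: ggacccttggcgGTCTGttttgaataagg

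The window of Id2 held 1 GGCGCC and no CAGAC, and the window of Id3 held 2 CAGAC and no GGCGCC. An E-box was found once in the Id2 window (CAGCTG) and not in the Id3 window. Of all 32851 RefSeq windows of this length, 11.9% held GGCGCC, 49.6% held CAGAC and 72.3% held an E-box. A match is a description of the letters and not a bound site. Tgfbr1 has RefSeq starts with different windows, of which the first held 1 GGCGCC and the second 1 CAGAC and 1 E-box.

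Id2 was read in nearly every cell of both sets. Among with-MK cells 19 of 20 had it (95.0%, exact binomial 95% interval 75.1 to 99.9), with 25025 reads in all, and 24 of 24 without-MK cells had it, with 5215 reads. Its level in single cells ran from 0 through a median of 1268 CPM to 7935 CPM in the with-MK set, and from 80.9 through 308 to 1698 CPM in the without-MK set. The sets overlapped: 6 with-MK cells lay above every without-MK cell, 1 lay below every one, and 17 of 20 lay above the without-MK median. That single low cell, with-MK cell 2, had no Id2 read in 957672 library reads, where 3 reads would stand for 3.13 CPM by counting alone.

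Summed over cells, Id2 stood at 1600 CPM with and 420 CPM without megakaryocytes, a 3.81-fold higher level (3.70 to 3.93, an exact Poisson interval that covers counting error only, since reads without molecular identifiers are not independent molecules). The fold depended on the scaling: median-ratio size factors put Id2 at a log2 ratio of 3.32, and at 2.13 once the 2 shallow with-MK cells were left out. Means of the deposited signal put it at 2.21. Among the 3271 genes read in at least 10 of the 44 cells, 24.4% were at least 2-fold higher and 28.3% at least 2-fold lower in with-MK cells on pooled CPM. Id2 thus belongs to a large class of genes, and its 2-fold call is not particular to it. On the log2(CPM + 1) scale the cells averaged 9.77 ± 2.77 (SD, 20 with-MK cells) against 8.38 ± 1.01 (SD, 24 without-MK cells), a difference of 1.39. That difference is smaller than the SD over the with-MK cells, but this SD includes with-MK cell 2 at 0 CPM, far below the rest of its set. Leaving that cell out would lower the SD and raise the difference, so that the difference would exceed the SD. That cell was singled out after its value was seen. The 3 with-MK cells with the most Id2 reads gave 44.5% of the set's reads, and cell 20 alone gave 22.7%. Without it the ratio was 3.10. The highest CPM belonged to the shallow with-MK cell 16, with 568 reads of Id2, followed by cell 20 at 7094 CPM and cell 18 at 5343 CPM.

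**Figure D1:**
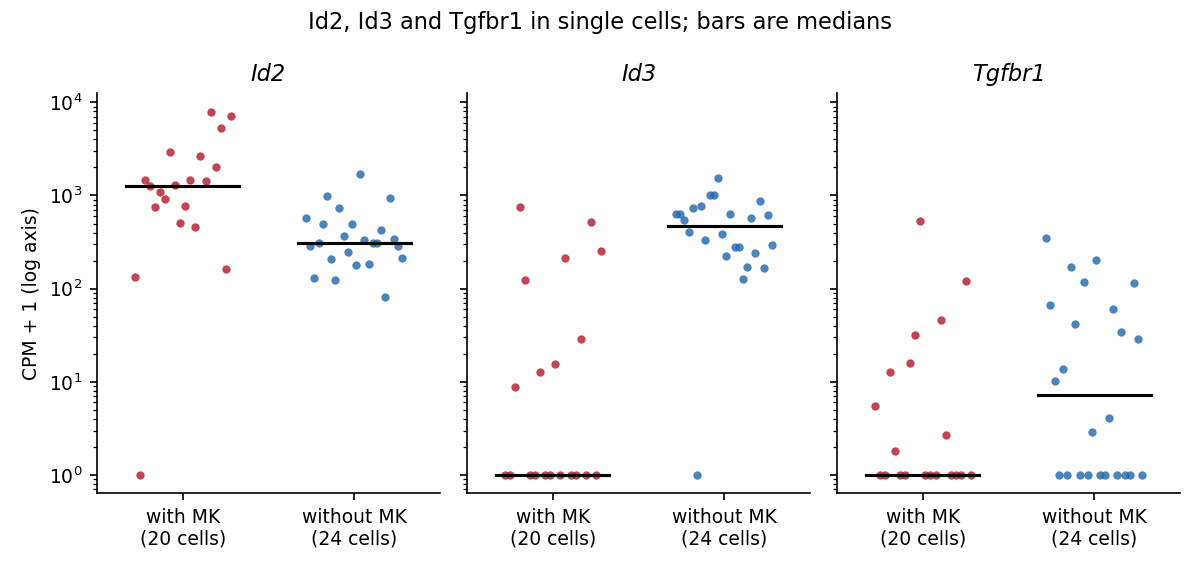
Each dot is 1 cell, with CPM + 1 of Id2, Id3 and Tgfbr1 on a vertical log scale. The 20 with-MK and 24 without-MK cells are side by side, with bars at the set medians. Id2 is spread widely among with-MK cells around a median of 1268 CPM, Id3 is at 0 in 11 of them and in 1 without-MK cell, and Tgfbr1 is at 0 in many cells of both sets.

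Id3 ran the other way and differed most in how many cells had a read of it. Of the 20 with-MK cells 9 had a read (45%, 23.1 to 68.5), and of the 24 without-MK cells 23 did (95.8%, 78.9 to 99.9). In the with-MK set its level ran from 0 through a median of 0 to 760 CPM, and in the without-MK set from 0 through 470 to 1533 CPM. Here too the sets overlapped: 18 of 20 with-MK cells lay below the without-MK median, and 5 without-MK cells lay above every with-MK cell. The 11 with-MK cells without an Id3 read were not shallow. Their library reads ran from 603903 to 1103554, so 3 reads would stand for 2.72 to 4.97 CPM. In without-MK cell 6, the only one of its set without an Id3 read, 3 reads would stand for 9.54 CPM, and Id2 was at 996 CPM. These limits cover counting error only and say nothing of transcripts lost before sequencing. With-MK cells had fewer listed genes with a read (median 2054 against 2492), though their median library was deeper. The part of this in the cells without an Id3 read was not tested.

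The pooled level of Id3 was 93.3 CPM with (1459 reads) and 550 CPM without megakaryocytes (6823 reads), which is 5.89-fold lower in with-MK cells (5.57 to 6.24, exact Poisson). On the mean log2(CPM + 1) scale the sets were at 2.84 ± 3.60 and 8.44 ± 2.02, a difference of −5.59, which is larger than either SD. The median of that difference over all 3271 tested genes was −1.10. A single cell carried much of the with-MK level, since cell 4 gave 651 reads, 44.6% of the set. Leaving it out put Id3 at 10.1-fold lower in with-MK cells, and leaving out the top cell of both sets put it at 9.02-fold lower.

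The with-MK cells divided into a few that had Id3 well above the detection limit and many that had no read of it. With-MK cells 4, 18, 20, 13 and 5 stood at 760, 517, 251, 213 and 122.9 CPM, each with at least 100 reads, and together held 98.5% of the set's Id3 reads. With-MK cells 16, 11, 8 and 3 stood at 27.9, 14.5, 11.6 and 7.88 CPM from at most 11 reads each. Their macrophage markers went down to 4065 CPM and their osteoblast and fibroblast markers ran from 12.7 to 196 CPM, with the shallow cells 16 and 11 the highest of the set at 196 and 159 CPM. In the 5 cells with at least 100 reads, the macrophage markers summed to 23200 to 32360 CPM and the osteoblast and fibroblast markers to 6.15 to 25.6 CPM, against at least 4276 CPM of the latter in any without-MK cell. Cells with no Id3 read had 9342 to 61330 CPM of macrophage markers and 3.88 to 18.2 CPM of the osteoblast and fibroblast markers. The limit of 100 reads was set after these values were seen.

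Tgfbr1 was low and patchy in both sets, with no stable direction between them. With megakaryocytes 9 of 20 cells had a read (45%, 23.1 to 68.5), and without them 14 of 24 did (58.3%, 36.6 to 77.9). Its level ran from 0 through a median of 0 to 537 CPM with megakaryocytes, and from 0 through 6.15 to 349 CPM without. The pooled levels were 41.8 and 50.3 CPM, from 654 and 624 reads, a ratio of 0.832 (0.745 to 0.930, exact Poisson). With-MK cell 10 held 424 of the reads, 64.8% of its set, and without it Tgfbr1 was 3.245-fold lower in with-MK cells. Without-MK cell 1 held 185 reads, and without that cell the ratio turned to 1.13. The direction and the 2-fold call of Tgfbr1 both rested on 1 cell. Leaving out 1 cell at a time kept Id2 between 3.10-fold and 4.40-fold higher and Id3 between 5.29-fold and 10.1-fold lower.

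A comparison of Id2 with Id3 needs levels per length, so pooled CPM was divided by the kilobases of the RefSeq-linked transcript, 1270 b for Id2, 1278 b for Id3 and 5756 b for Tgfbr1. The order depends on that choice, because the deposited values carry their own whole-number divisor per gene, 602 for Id2 and 34 for Id3, whose meaning is not given in the sources used here. With megakaryocytes the order was Id2 at 1260 CPM per kb, Id3 at 73.0 and Tgfbr1 at 7.27. Without megakaryocytes Id3 led at 430 CPM per kb, followed by Id2 at 331 and Tgfbr1 at 8.73. The leading pair of the without-MK set did not separate: Id3 was above Id2 in 16 of its cells and Id2 above Id3 in 8. In the with-MK set, Id2 was above Id3 in 19 of 19 cells that had either gene. On the deposited values Id2 was above Id3 in 15 of those 19 cells, with Id3 above in with-MK cells 4, 5, 13 and 18, and in the without-MK set Id3 was above in 23 of 24.

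Expressed as Id2 over the sum of Id2 and Id3 per kb, a measure chosen after the data were seen, the with-MK cells ran from 62.4% to 100% with a median of 100%, and 10 of them were at 100%. The without-MK cells ran from 14.0% to 100% with a median of 42.3%, and the highest share in a cell with Id3 reads was 73.2%. With-MK cells 4 and 13 had the lowest shares of their set, at 62.4% and 68.5%, and 5 without-MK cells lay at or above the former. The with-MK range therefore lay inside the without-MK range, while the medians lay apart. The highest without-MK cell, cell 6 with no Id3 read, was at 100%, and 9 with-MK cells lay below it. With the longest Id2 transcript of 1969 b in its place, the lowest with-MK share was 51.7% and the without-MK median 32.1%. On the deposited values the lowest with-MK share was 8.51% and the median still 100%, and the without-MK median was 3.95%. The size of the share, and which gene leads in a cell that has both, are thus tied to the length used, while the higher median in with-MK cells was found on all 3 scales.

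**Figure D2:**
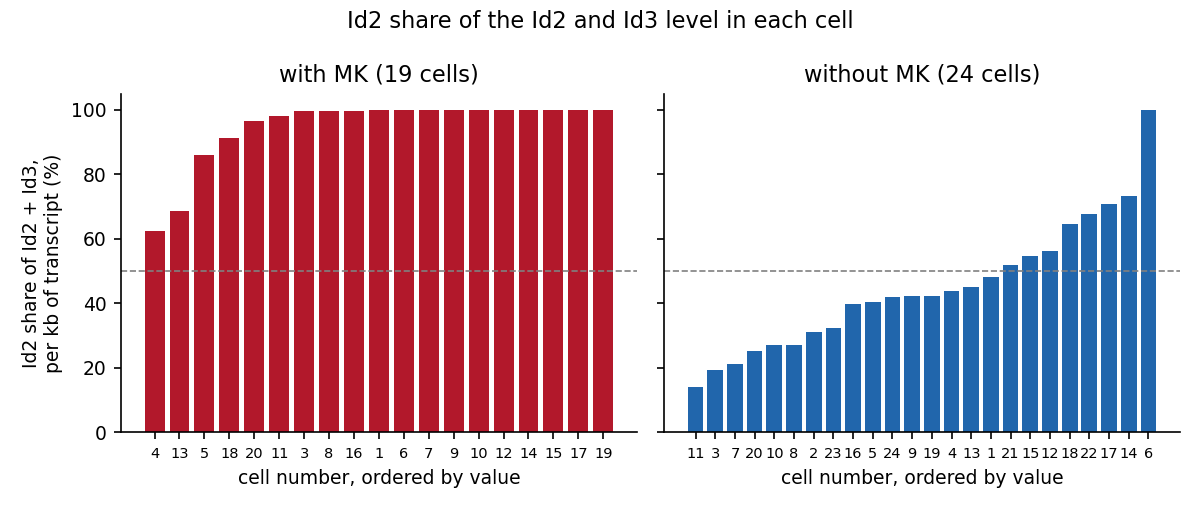
The vertical axis gives the Id2 share of Id2 plus Id3, in percent of CPM per kb, for each cell that had either gene. On this scale all 19 with-MK cells are above the line where both genes are equal, with the lowest at 62.4%, and the 24 without-MK cells lie on both sides of it around a median of 42.3%.

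Within the sets, opposite use of Id2 and Id3 was not seen. Of the with-MK cells 9 had both genes, 10 had Id2 alone and 1 had neither, and of the without-MK cells 23 had both and 1 had Id2 alone. These counts say little about opposite use, since Id2 was read in all but 1 of the 44 cells and Id3 alone could occur only in with-MK cell 2. With every cell thinned to 310000 reads, which left 18 with-MK and 22 without-MK cells, Id2 was read in 17 and 22 of them, Id3 in 7 and 21 and Tgfbr1 in 8 and 13. At a limit of 10 CPM the with-MK counts were 8, 11 and 1 and the without-MK counts were 23 and 1. Across cells, Spearman's rho of Id2 with Id3 was 0.32 in the 20 with-MK cells and 0.23 in the 24 without-MK cells. Weak correlations of this size in sparse counts are no finding. For scale, the middle 95% of the rho of Id2 with the other genes read in at least 8 cells of a set spanned −0.50 to 0.37 in the with-MK set and −0.48 to 0.35 in the without-MK set. On log2(CPM + 1), Pearson's r was 0.36 and −0.13. The cells of a set share a capture, a plate and a library preparation.

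**Figure D3:**
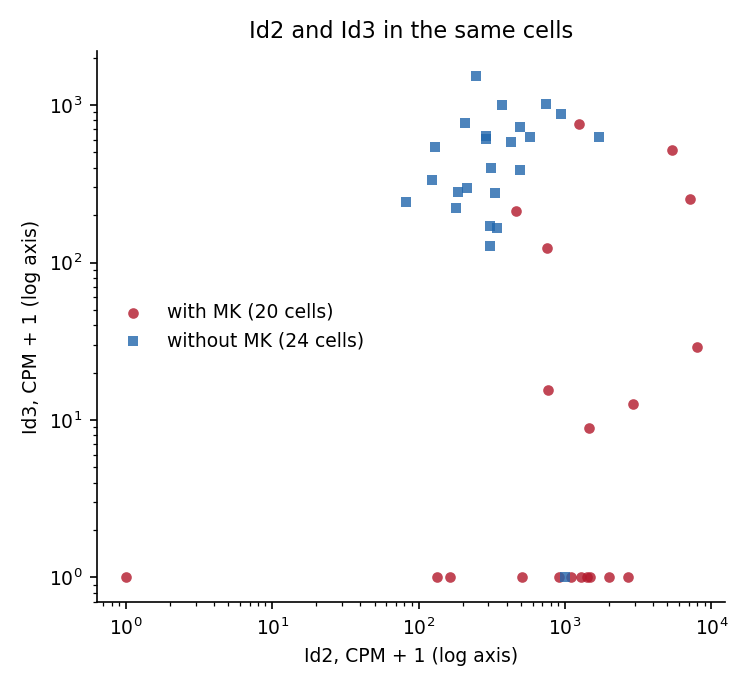
Each dot is 1 cell, marked by set, with Id2 on the horizontal and Id3 on the vertical axis, both as CPM + 1 on a log scale. The without-MK cells form 1 group in which both genes are present except in cell 6, and the with-MK cells split between a row at 0 Id3 and 9 cells with Id3, and Pearson's r on these axes is 0.36 with and −0.13 without megakaryocytes.

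**Figure D4:**
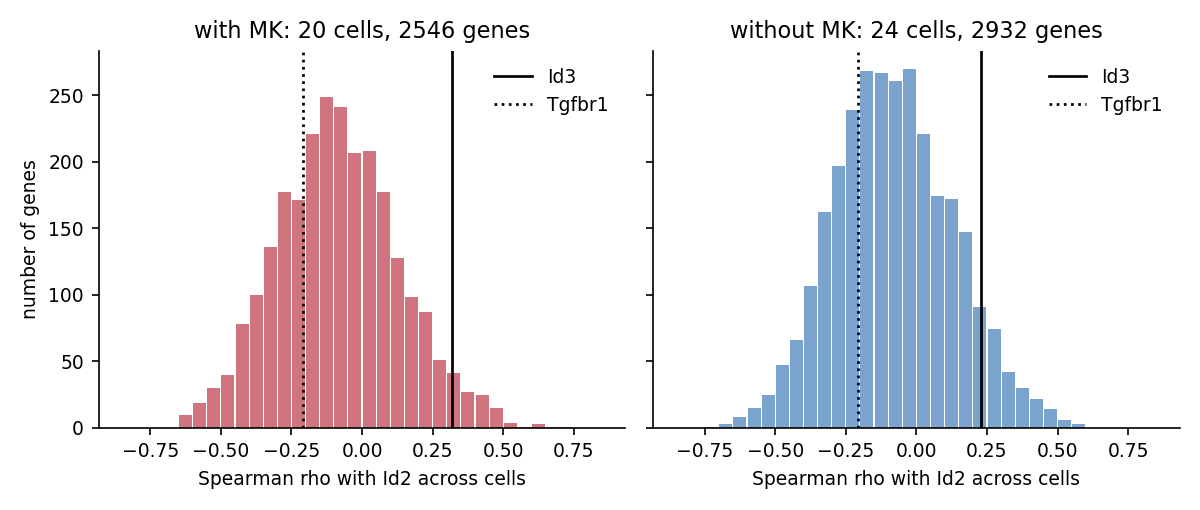
The histogram gives, for each set, Spearman's rho of Id2 with every other gene read in at least 8 of its cells, and vertical lines mark Id3 and Tgfbr1. Id3, at 0.32 and 0.23, lies on the upper side within the middle 95% of genes, and Tgfbr1, at −0.21 in both sets, on the lower side.

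Tgfbr1 was no closer to either Id gene. Its rho with Id2 was −0.21 in both sets, and with Id3 it was −0.27 in with-MK and 0.06 in without-MK cells. Every cell with Tgfbr1 also had Id2, and 3 of the 9 with-MK cells and 14 of the 14 without-MK cells with Tgfbr1 had Id3. Depth and cell content moved with these genes as well. The rho of Tgfbr1 with the number of listed genes read was 0.66 in without-MK cells. For Id2 it was −0.48 in without-MK cells, and its rho with library reads was −0.40 in with-MK cells. Id3 of the with-MK cells had a rho of 0.43 with the osteoblast and fibroblast sum and 0.01 with the macrophage sum. Their part in the levels was not tested.

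The genes most like each member across the cells of a set were ranked by Spearman's rho among those read in at least 8 of its cells, 2500 in the with-MK and 2869 in the without-MK set. In with-MK cells Id3 was most like Idh2, a mitochondrial isocitrate dehydrogenase (rho 0.80), Mrc1, the mannose receptor of macrophages (0.71), and Nucb1, a calcium-binding protein of the Golgi (0.68). Bicd2, an adaptor of dynein transport, was lowest at −0.67. Across the without-MK cells the same genes gave 0.22, −0.27, −0.12 and 0.07, with Mrc1 read in only 4 of those cells. Id2 of the with-MK cells was most like Acsl4, which activates long-chain fatty acids (0.72), Dock2, a Rac activator of blood cells (0.68), and Ttc1 (0.64), and least like Plekhb2 (−0.65). Acsl4 gave −0.06, Ttc1 −0.19 and Plekhb2 −0.35 in the without-MK set, where Dock2 had no read.

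Other genes led in the without-MK cells. Id3 was most like Map2k3, a kinase upstream of p38 (0.74), Nfkbib, an inhibitor of NF-kappaB (0.64), and Dpf2, a subunit of BAF chromatin remodelling complexes (0.61), and least like Dld, a mitochondrial dehydrogenase subunit (−0.75). In the with-MK cells these gave −0.43 for Map2k3, −0.04 for Nfkbib, 0.40 for Dpf2 and −0.22 for Dld. Id2 was most like Thoc6, a part of the THO complex (0.59), Rpl7l1 (0.58) and Tceb1, elongin C (0.56), and least like Rpp21, a subunit of RNase P (−0.71). In the with-MK cells these gave −0.13, 0.15, −0.04 and −0.21. Tgfbr1 was most like Ndufs8 of respiratory complex I (0.76), Ssfa2 (0.76) and Rab8a, a GTPase of membrane traffic (0.75), with megakaryocytes, and like Luc7l2, a splicing factor (0.77), Lamtor4 of the Ragulator complex (0.76) and Plod1, a collagen lysyl hydroxylase (0.72), without. Dnttip2 (−0.70) and Uqcr10 of respiratory complex III (−0.57) were least like it. In the other set Ndufs8, Ssfa2, Rab8a and Dnttip2 gave 0.18, −0.02, 0.40 and −0.08, and Luc7l2, Lamtor4, Plod1 and Uqcr10 gave 0.03, 0.36, −0.33 and 0.34. These are the extremes of many values over few cells, and no p is given.

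Around these members, a list of 145 genes of the TGF-beta and BMP pathways was followed by role. Only 33 of them are in the table and 32 were read in at least 10 cells. Of these, 4 (12.5%, against 24.4% of all tested genes) were at least 2-fold higher and 22 (68.8%, against 28.3%) at least 2-fold lower in with-MK cells, and the median log2 ratio of pooled CPM was −2.72 against −0.14 for all tested genes. Id2 is 1 of the 4, so the list leans opposite to it. The list was chosen with earlier results of these data known. It also holds Col1a2, Col3a1, Postn, Lox and Bgn, which are osteoblast and fibroblast markers. Its lean cannot be told apart from the difference in cell content between the sets. With reads of the listed genes as the total, the median of all tested genes moved to −0.40 and the list's counts to 3 higher and 22 lower. With median-ratio size factors they moved to 0.03 and to 5 and 20. None of the 15 ligands, which include the TGF-beta and BMP genes themselves, is in the table, so ligand levels were not analysed here.

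**Figure D5:**
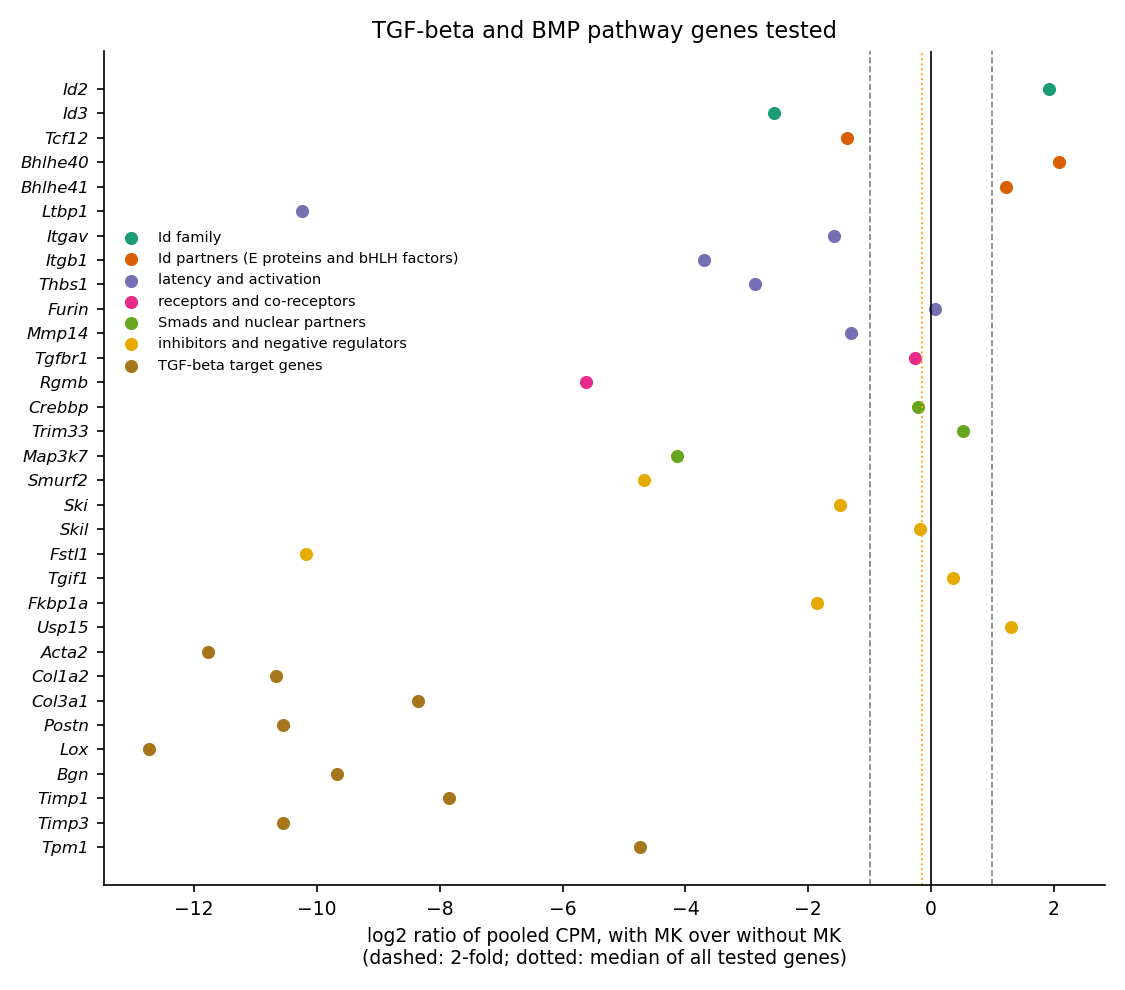
Each dot is 1 of the 32 tested pathway genes, with the log2 ratio of pooled CPM, with-MK over without-MK, on the horizontal axis and rows by role, and lines at 0, at 2-fold in either direction and at the median of all tested genes (−0.14). Id2, Bhlhe40, Bhlhe41 and Usp15 lie to the right of the 2-fold line, Tgfbr1 is near 0, and the 9 TGF-beta target genes lie far to the left.

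Among the partners of Id proteins, 3 of 13 listed genes could be tested. Tcf12, an E protein that Id proteins bind, was at 34.9 CPM with and 89.7 CPM without megakaryocytes, 2.58-fold lower. Bhlhe40 and Bhlhe41, helix-loop-helix repressors, were higher on pooled CPM, the former 4.25-fold (273 against 64.3 CPM) and the latter 2.33-fold (386 against 166 CPM). The median over cells of Bhlhe40 was lower with megakaryocytes, at 12.3 against 15.75 CPM, though its mean log2(CPM + 1) was higher by 1.1. For Bhlhe41 the medians were 8.3 and 5.5 CPM. Without the top cell of each set Bhlhe41 was below 2-fold, at a log2 ratio of 0.86. With reads of the listed genes as the total it was at 0.96. Within the Id family, Id2 and Id3 are the 2 of 4 genes in the table.

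Genes that hold TGF-beta latent or release it were mostly lower in with-MK cells, 5 of 6 by at least 2-fold, where 28.3% of all tested genes were. Ltbp1, which tethers latent TGF-beta to the matrix, had 3 reads against 2894, 1215-fold lower (415 to 5896, exact Poisson). Itgb1 and Itgav, integrin chains that bind latent TGF-beta, were 13.0-fold and 2.99-fold lower, and Thbs1, a thrombospondin that can activate it, was 7.32-fold lower at 719 against 5264 CPM. The remaining gene within 2-fold was Furin, the protease that cleaves TGF-beta precursors, at 42.2 against 40.2 CPM, named after its value was seen. Under median-ratio size factors its log2 ratio was 1.21, and with reads of the listed genes as the total it was −0.19. Of 16 receptors and co-receptors only Tgfbr1 and Rgmb, a BMP co-receptor, could be tested, and Rgmb had 9 reads against 349, 48.9-fold lower (25.4 to 108).

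Signal carriers and brakes differed less evenly. Map3k7, the TAK1 kinase of the Smad-independent branch, was 17.6-fold lower (4.86 against 85.3 CPM) but had a log2 ratio of only −0.61 under median-ratio size factors. Crebbp, a coactivator of Smads, was at 69.3 against 80.5 CPM, and Trim33, which binds Smads, at 93.9 against 65.6 CPM. Trim33 was read in only 6 of 20 with-MK cells against 18 of 24, and its mean log2(CPM + 1) was lower in with-MK cells, by a difference of −1.84. Both depended on 1 cell a set: without the top cells their log2 ratios moved from −0.22 to −1.44 and from 0.52 to 1.15. Among inhibitors 4 of 7 were at least 2-fold lower, again against 28.3% of all tested genes. Fstl1, a secreted BMP antagonist, was at 4.54 against 5254 CPM, Smurf2, a ubiquitin ligase for receptors and Smads, 25.5-fold lower, Fkbp1a, which holds type I receptors inactive, 3.61-fold lower, and Ski, a corepressor of Smads, 2.78-fold lower. Ski was at a log2 ratio of −0.04 under median-ratio size factors. Usp15, a deubiquitinase that acts on this pathway, was 2.47-fold higher at 334 against 135.6 CPM, also named after its value was seen.

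The 9 testable TGF-beta target genes were all at least 2-fold lower in with-MK cells (28.3% of all tested genes were), with a median log2 ratio of −10.56. Lox, which crosslinks collagen, stood at 0.384 against 2610 CPM, Bgn, the proteoglycan biglycan, at 1.98 against 1619 CPM, Col1a2, a chain of type I collagen, at 2.43 against 3967 CPM, and Postn, the matrix protein periostin, at 0.512 against 771 CPM. Col1a2, Col3a1, Postn, Lox and Bgn also stand among the osteoblast and fibroblast markers, whose sum differs between the sets as given above. Of 20 BMP target genes only Id2 and Id3 are in the table, and they point in opposite directions.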

How the data were processed

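The table states no unit. Its deposited signal was found to follow RPKM in form: reads × 1e+09, divided by the cell's library reads and by 1 whole number per gene. Reads were recovered by script. The whole number per gene was taken as the smallest that turned all its values into whole reads at a tolerance of 0.0001. All 99807 values above 0 became whole reads, but this count follows from that choice and is no check on the recovery. CPM is recovered reads × 1e+06 over library reads and was inferred here. The whole number per gene is 602 for Id2, 34 for Id3 and 228 for Tgfbr1. The deposited signal of different genes was therefore compared only for Id2 with Id3, beside the values per kb. 25 genes are at 0 in all cells. Seurat and mm10 are named as tool and build, per the submitters' processing notes. The kits and the 150 b paired-end NextSeq reads are per the labels' protocols. Not given in the sources used here were the aligner, counter and annotation.

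Cells were grouped by the treatment field. Pooled CPM is the sum of reads over the sum of library reads, and intervals are exact at 95% (Poisson for ratios of reads, Clopper-Pearson for shares of cells). A group below 3 reads was set to 3 for ratios. No test between sets was run, since cells are not replicates. Scripts were tested on simulated data (Python 3.11.15, numpy 2.4.6, pandas 2.3.3, scipy 1.17.1). The simulated data held added genes with 1 read in every cell, so they could not test how library reads were inferred.

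The members and all gene lists were chosen with earlier results of these data known. Named genes are the members, every testable Id family gene and receptor, the 4 in each role list with the largest absolute difference in mean log2(CPM + 1), and the 3 genes most and the 1 least like each member in each set. Names ending in Rik, starting with Gm and a digit, or turned into dates were passed over. Alternatives tried were other totals, size factors, detection limits, cells left out, the deposited signal, thinning to 310000 reads per cell, another fold and another filter. RefSeq windows and GENCODE M21 gave positions and lengths.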

Additional observations from a re-analysis of the deposited data

How the results depend on the processing

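Of 98 recomputed values, 70 stayed close to the reported ones, most of them counts of cells with a read. A further 27 moved, among them most of the recomputed log2 ratios of Id2 and Id3, and 1 reversed. Id2 stayed at least 2-fold higher and Id3 at least 2-fold lower in with-MK cells under every alternative run for them. As log2 ratios of pooled CPM, Id2 (1.93), Id3 (−2.56) and Tgfbr1 (−0.27) became 1.67, −2.82 and −0.53 with reads of the listed genes as the total. Without the top cell of each set they were 1.84, −3.17 and −1.25. With 1 of the 44 cells left out at a time, Id2 ran from 1.63 to 2.14, Id3 from −3.33 to −2.40 and Tgfbr1 from −1.70 (without with-MK cell 10) to 0.18 (without without-MK cell 1). Id2 and Id3 were 3.32 and −2.15 with median-ratio size factors over 215 genes, and 2.13 and −2.13 with them once the shallow with-MK cells were left out. With means of the deposited signal they were 2.21 and −2.43, and thinned to 310000 reads per cell, with 18 and 22 cells left, Id3 was −2.45. Tgfbr1 had 10 reads or more in 9 without-MK cells, against 14 with any read. The correlation of Id2 with Id3 in with-MK cells (0.32) was 0.36 as Pearson's r of log2(CPM + 1), 0.34 in thinned cells and 0.34 without the shallow cells. In without-MK cells (0.23) it was 0.20 in thinned cells and reversed to −0.13 as Pearson's r. On the deposited values the median Id2 share in without-MK cells (42.3%) was 3.95%. At 4-fold, 14.2% of tested genes were higher and 13.4% lower. The causes were not tested. No paired analysis was possible because the cell numbers do not pair cells across plates and no test was run. Leaving out each cell, the counts without the shallow cells, the longest Id2 transcript, the share on deposited values and the size factors without the shallow cells were chosen after seeing the data.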
